A study of Caenorhabditis elegans with 8 samples.

Results

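Unirradiated wild-type worms were sequenced beside irradiated ones as the background of an XR-seq experiment, and the comparison asks how the reads of both differ. XR-seq sequences the short single-stranded oligomers that nucleotide excision repair cuts out of damaged DNA. Oligomers carrying cyclobutane pyrimidine dimers (CPDs) were pulled down here with a CPD antibody, and photolyase reversed the dimers before amplification. A CPD joins 2 neighbouring pyrimidines of one strand, most often a pair of thymines, and in an excised oligomer it sits a few nucleotides from the 3' end, so a TT at that place is called the CPD mark below. The comparison is between 4 of the 8 samples of the series, chosen by their labels, all from L1 larvae of the N2 wild-type (WT) strain of *C. elegans*: 2 libraries collected 1 h after UVB (WT) and 2 libraries from worms without irradiation (WT no UV). All 4 libraries carry the same genotype and went through the same antibody, and nothing in the sources used here says that the replicates came from separate cultures, so the spread between them may be technical. The other 4 samples are irradiated *csb-1* L1 larvae and irradiated mixed-stage *xpc-1* worms. The files hold 1 row for each distinct read of 19 to 24 nt, with a position on the ce11 genome, a mapping quality from 0 to 42 and a number of copies. A read was kept when its mapping quality was over 20 and it lay on one of the 6 nuclear chromosomes, and every read was counted once unless its copies are named.

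WT no UV gave far fewer reads than WT. The files of WT replicates 1 and 2 hold 8720751 and 3495708 rows, and those of WT no UV hold 12013 and 14979. Kept reads numbered 8198054 and 3252700 in WT and 10260 and 12916 in WT no UV. The mean of WT no UV was 0.202% of the mean of WT, and the groups did not overlap. With 2 libraries in each group, an exact two-sided permutation test cannot go below p = 0.333, which is its value for this difference and for each of the other differences between the groups given below. Each name also carries a running number, and the highest number was 22170049 and 9499252 in WT against 547585 and 569093 in WT no UV. The rows were 39.3% and 36.8% of that number in WT, but only 2.19% and 2.63% in WT no UV. By this number the mean of WT was 28.4 times that of WT no UV, while by kept rows it was 494 times. How many worms stood behind each library, how much of each was sequenced and how many oligomers each worm gave cannot be told apart from these counts.

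The reads with the most copies give examples of the contrast. They were picked by copies, with which the CPD mark moved (below), so they do not stand for their whole library. For each library, the 3 reads of 24 nt with the most copies outside the first chromosome are given below as the ce11 reference sequence at the deposited position, 5′ to 3′, with the 2 bases that lie 6 nt from the 3' end in capitals. All of these reads have the top mapping quality of 42.
WT replicate 1, chrX:16869150-16869173, minus strand, 272 copies: gaccgcgatggctcaaTTatctct
WT replicate 1, chrX:14804765-14804788, minus strand, 189 copies: gggtcgattattcctaTTttgtac
WT replicate 1, chrX:3130634-3130657, minus strand, 153 copies: gtaccccctccccttaTTacaacc
WT replicate 2, chrIV:11570227-11570250, minus strand, 1240 copies: gcccgcgtttgcccccTTactgct
WT replicate 2, chrIII:9705459-9705482, minus strand, 1134 copies: ccgcttatggcgccccTTactacc
WT replicate 2, chrII:9646920-9646943, plus strand, 782 copies: ggacagacactgtcggTTttgtgt
WT no UV replicate 1, chrIV:4785306-4785329, minus strand, 10 copies: agatgtcatttcactgATtcccag
WT no UV replicate 1, chrII:5537283-5537306, minus strand, 8 copies: actgcccagcggaattTGgagtct
WT no UV replicate 1, chrII:12479756-12479779, plus strand, 8 copies: gaggcgaatgaaggggTGgccggc
WT no UV replicate 2, chrV:10906161-10906184, minus strand, 12 copies: taccttagttatatatCCtggatc
WT no UV replicate 2, chrIII:8719249-8719272, minus strand, 10 copies: ggaagtttttgtattcTTacaaca
WT no UV replicate 2, chrV:13022584-13022607, plus strand, 10 copies: ggagtaagtaactaacTCgaacca
The 6 reads of WT all have TT in capitals, against 1 of the 6 reads of WT no UV. The read of WT replicate 2 on chromosome III lies in an intron of *tlk-1*, and the other 5 reads of WT lie outside genes, 4 of them within 2 kb upstream of one. In WT no UV, 3 of the 6 reads lie in coding exons, of *nhr-104*, *arrd-9* and F32D8.15, 1 lies in an intron of *fmi-1* and 2 lie within 2 kb upstream of a gene.

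The CPD mark was present in WT no UV but much weaker than in WT. Among kept reads of 24 nt, TT was the dinucleotide at 6 nt in 51.8% of WT replicate 1 and 53.2% of WT replicate 2, against 26.8% (95% exact interval 24.3 to 29.3) and 18.6% (16.8 to 20.5) in WT no UV. All intervals given are 95% Clopper-Pearson ones, which describe counting error alone. The group means were 52.5% ± 0.980 and 22.7% ± 5.78 (SD, n = 2), a difference of -29.8 percentage points (SD 5.86), so the difference was larger than the spread between replicates although the WT no UV libraries also differed from each other beyond counting error. All 4 libraries had their highest TT share at 6 nt. Over the positions 10 to 19 nt from the 3' end, TT averaged 12.2% and 12.4% in WT and 12.1% and 12.0% in WT no UV, against 13.5% of all dinucleotides of the nuclear genome. The share at 6 nt was thus 4.26 and 4.28 times its flank in WT, and 2.22 and 1.55 times in WT no UV. The peak in WT no UV was also narrower, with 17.7% and 13.0% one position nearer the 3' end, where WT had 47.2% and 45.2%. A TT anywhere in the read was found in 98.7% and 98.4% of WT reads and in 83.3% and 80.1% of WT no UV reads. The TT share at 6 nt varied little with read length. From 19 to 24 nt it lay between 48.5% and 53.2% in WT and between 18.6% and 27.6% in WT no UV.

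Several other dinucleotides were more frequent at the same place in WT no UV than in WT, TC by the most percentage points. AT, GT, TG and TA were less frequent there in both WT no UV libraries than in either WT library. TC, another pyrimidine pair at which UV forms photoproducts, stood 6 nt from the 3' end in 18.4% (16.3 to 20.7) and 24.1% (22.03 to 26.2) of 24 nt reads in WT no UV, and in 3.92% and 3.57% in WT. The groups did not overlap, and the difference was 17.5 percentage points (SD 3.97). In WT, TC at this place was below its own level 10 to 19 nt from the 3' end, at 0.511 and 0.441 times the flank, while in WT no UV it was 2.41 and 3.01 times the flank. The TC peak of WT no UV spanned 2 positions, with 17.8% and 25% at 7 nt from the 3' end, whereas WT had its highest share, 12.2% and 12.7%, at 4 nt. TT and TC together made up 55.7% and 56.8% of reads at 6 nt in WT and 45.2% and 42.7% in WT no UV. The 2 WT no UV libraries were in opposite order for the dinucleotides: replicate 1 had more TT than TC and replicate 2 more TC than TT. CT made up 4.71% and 5.27% in WT against 6.86% and 9.48% in WT no UV, and CC 0.611% in each WT library against 2.78% and 3.85%. In WT no UV, CC was below its flank of 4.87% and 5.03%. At 6 nt, CT was just below its flank of 7.06% in replicate 1 and above that of 7.21% in replicate 2. Farther from the 3' end CT stood higher in WT no UV, with 15.5% and 16.4% at 7 nt and 13.0% and 17.4% at 8 nt. In WT it made up 7.15% and 7.05% at 7 nt and 6.39% and 6.45% at 8 nt. With less TT at 6 nt, the other dinucleotides together must take a larger share there. The higher shares at 6 nt in WT no UV were not limited to pyrimidine pairs. CA stood there in 10.8% and 14.99% of its reads, above its flank of 7.49% and 7.16%, and in 1.91% and 1.56% in WT, and CG in 3.92% and 4.27% against 0.646% and 0.610%. AA was less frequent at 6 nt than in the genome, at 2.85% and 2.79% in WT and 7.43% and 4.86% without UV against 13.5% of all genome dinucleotides. Over the 6 irradiated libraries of the series, TC at this place ranged from 2.63% to 6.96%, below both WT no UV libraries. The TC measure was taken up after the dinucleotides had been seen.

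**Figure D1:**
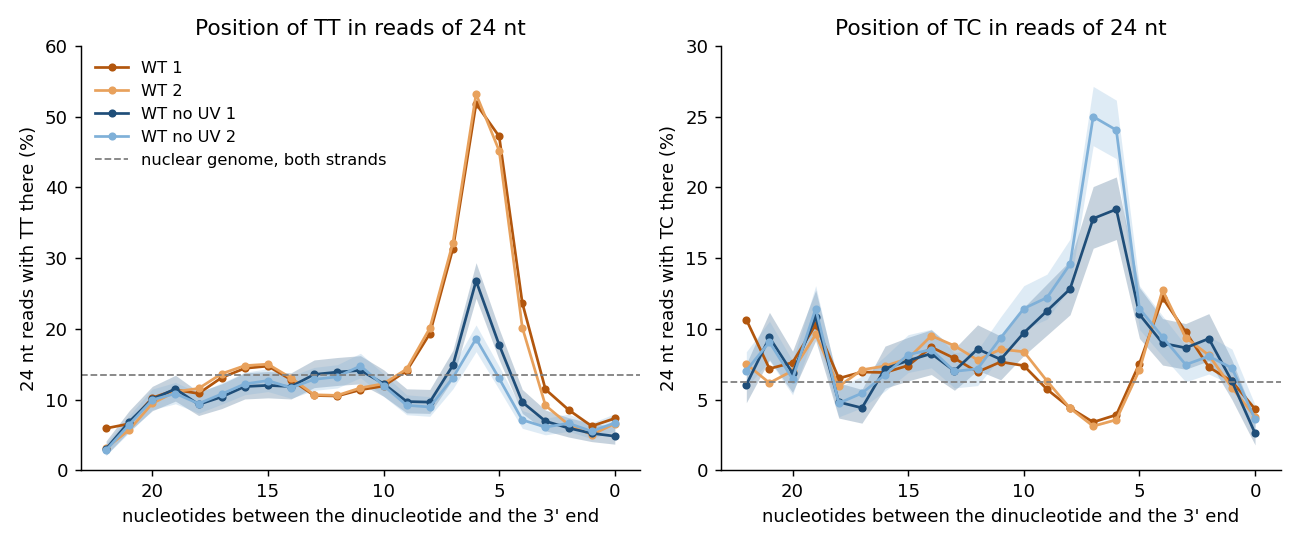
Share of kept 24 nt reads with TT (left) or TC (right) at each distance from the 3' end, in nucleotides, for the 4 libraries, with 95% exact intervals as bands and the share of the nuclear genome as a dashed line. TT peaks at 6 nt in all 4 libraries, at 51.8% and 53.2% in WT and 26.8% and 18.6% in WT no UV, and TC rises at 6 to 7 nt in WT no UV only.

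Read length differed in the same libraries. Shares rose steadily with length in WT, from 14.5% and 13.1% at 19 nt to 18.1% and 19.7% at 24 nt. WT no UV shares fell at the long end, from 19.02% and 17.4% at 19 nt to 11.9% and 13.1% at 24 nt. The mean length was 21.6 and 21.7 nt in WT and 21.3 and 21.4 nt in WT no UV, a difference of -0.359 nt (SD 0.101), and the groups did not overlap. The 24 nt share of WT no UV was much the same with and without the CPD mark: reads of 24 nt made up 12.4% and 12.1% of its reads with TT at 6 nt and 11.8% and 13.3% of those without. The files hold no read outside 19 to 24 nt, so the rest of the length distribution was not analysed here.

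**Figure D2:**
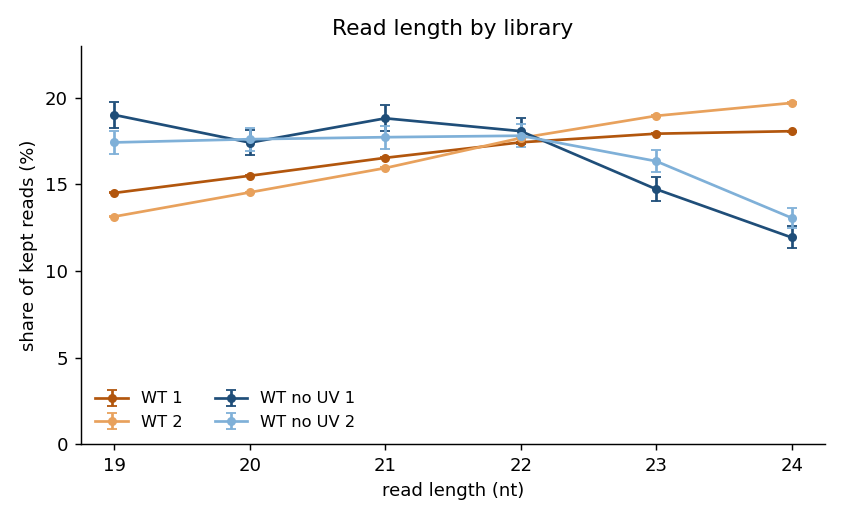
Share of kept reads at each read length from 19 to 24 nt, for the 4 libraries, with 95% exact intervals. Shares rise to 18.1% and 19.7% at 24 nt in WT and fall to 11.9% and 13.1% in WT no UV.

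Base composition moved with these marks. Thymine made up 35.5% and 34.4% of the bases of WT reads and 30.8% and 30.3% in WT no UV, where the nuclear genome has 32.3%. Cytosine made up 21.2% and 22.05% in WT and 24.3% and 25.3% in WT no UV, above the 17.7% of the genome in each library. Guanine was lowest in WT no UV, at 15.1% and 14.99%.

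More of the WT no UV reads could not be placed at one site. A mapping quality of 20 or less was given to 5.94% and 6.92% of rows in WT and to 14.4% and 13.5% in WT no UV, a difference of 7.53 percentage points (SD 0.915), with no overlap between the groups. Nearly all of these rows had a quality of 0 or 1, which the aligner gives to reads with equally good sites. Their shares with the CPD mark lay near those of their whole library: TT stood at 6 nt in 47.6% and 50.6% of them in WT and in 23.4% and 19.3% in WT no UV. Ribosomal RNA genes held 0.612% and 0.704% of these rows in WT and 2.26% and 2.42% in WT no UV, and pseudogenes held 7.54% and 7.22% against 7.59% and 7.01%. The top quality of 42, which Bowtie2 gives to its best unique matches, was reached by 84.8% and 73.7% of rows in WT and 70.0% and 72.1% in WT no UV, where the lower WT library and the higher WT no UV library lay close together. A quality of 23 was given to 2.28% and 13.8% in WT and 7.96% and 7.26% in WT no UV. Of the kept reads of that quality, 29.2% in WT replicate 1 and 69.2% in WT replicate 2 lay at a position that also held a read with at least as many copies, against 10.8% and 10.3% in WT no UV.

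Reads of WT no UV had fewer copies than those of either WT library, and the WT libraries themselves lay far apart. The mean number of copies of a kept read was 1.86 in WT replicate 1 and 18.9 in replicate 2, and 1.42 and 1.35 in WT no UV. The difference of -9.01 copies (SD 12.1) was smaller than the spread between replicates, although the groups did not overlap. Reads with 1 copy made up 58.9% of kept reads in WT replicate 1 and 87.1% and 89.7% in WT no UV. WT replicate 2 had none of its 3252700 kept reads at 1 copy, and its median was 18 copies. At the other end, 1% of rows held 7.45% and 5.58% of the copies in WT and 10.1% and 10.3% in WT no UV, where single reads reached 261 and 217 copies.

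The CPD mark rose with copies in WT replicate 1 and was missing from the few reads of WT no UV above 10 copies. In WT replicate 1, the share of reads with TT at 6 nt was 48.1% at 1 copy and 71.5% above 10 copies. In WT replicate 2 it was 51.2% at 2 copies, 39.0% at 3 to 5 copies and 75.5% above 100 copies. WT no UV replicate 1 had 26.2% (25.3 to 27.1) at 1 copy and 21.6% (15.8 to 28.4) at 6 to 10 copies, intervals that overlap, while replicate 2 had 20.7% (19.98 to 21.5) and 12.6% (8.44 to 17.7). Above 10 copies, WT no UV had 22 and 36 kept reads, and 0 of them had TT at 6 nt, which allows shares of up to 15.4% and 9.74%. These 22 and 36 reads were short, with means of 19.2 and 20.1 nt, and 90.9% and 58.3% of them had a mapping quality of 23, against 0.0482% of the reads above 10 copies in WT replicate 1.

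**Figure D3:**
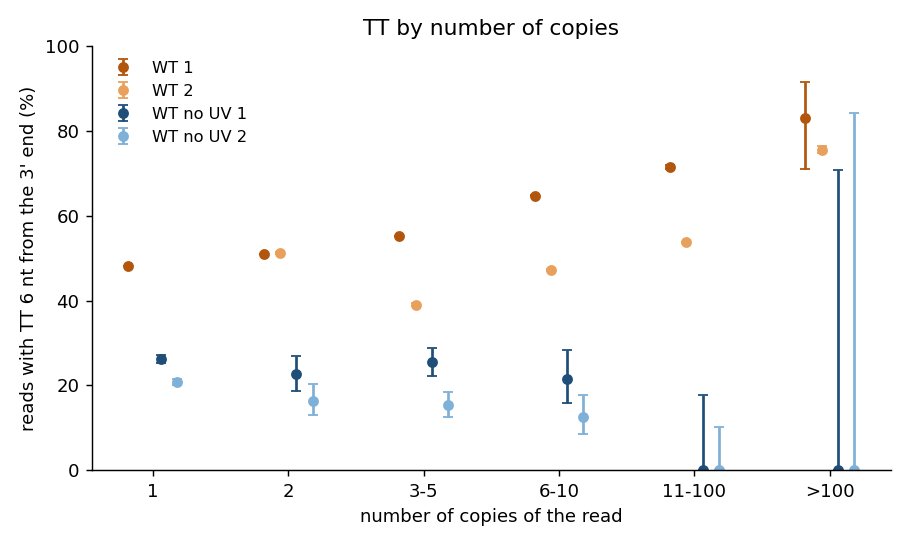
Share of kept reads with TT 6 nt from the 3' end by number of copies, for the 4 libraries, with 95% exact intervals. WT replicate 1 rises from 48.1% at 1 copy to 71.5% at 11 to 100 copies, while WT no UV has no such read above 10 copies, and WT replicate 2 has no read of 1 copy.

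The 2 WT no UV libraries shared a small set of positions, some of them with many copies. The reads of the 2 libraries met at 60 positions with the same start, end and strand, which held 69 rows and 6.32% of the copies in replicate 1 and 71 rows and 5.60% in replicate 2. Of these rows, 54 and 57 had a mapping quality of 23, and only 5 and 4 had TT at 6 nt. The 4 of these positions with the most copies outside the first chromosome are given below, again as reference sequence, with the copies in WT no UV replicates 1 and 2 and with the 2 bases at 6 nt from the 3' end in capitals. At a quality of 23 the read itself can differ from this reference.
chrIV:7233768-7233786, plus strand, 261 and 218 copies: agatccacactCTttccct
chrX:1104741-1104759, minus strand, 148 and 182 copies: caaaacccttaCCagttgg
chrIII:11488717-11488735, minus strand, 125 and 86 copies: cacgacgatcaTCcgatct
chrX:10214663-10214681, minus strand, 36 and 71 copies: agccgcaaaaaAAgctaaa
The position on chromosome IV lies outside genes and their 2 kb upstream, the next one in an intron of *ife-4*, which encodes a translation initiation factor of the eIF4E family, and the last 2 in coding exons of *nars-2* and F44A6.4. The same positions were not all free of reads in WT: they held 50, 0, 1 and 113 copies in WT replicate 1 and 1866, 0, 1200 and 262 copies in replicate 2. The 3' adaptor named in the study's methods was compared with the reference sequence of every kept read. A run of 10 nt or more of its constant part, on either strand, was found in 33 reads (0.322%) and 45 reads (0.348%) of WT no UV, with 1.16% and 1.19% of the copies, and in 0.0225% and 0.0263% of reads in WT. Of these reads in WT no UV, 90.9% and 86.7% had a mapping quality of 23, and they included 6 of the 22 and 4 of the 36 reads above 10 copies. No other adaptor sequence was searched for. The 4 positions listed above all have a mapping quality of 23, and whether their reads came from the worm genome was not tested. The part of adaptor sequence in the differences between the groups was not tested.

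Reads of WT no UV with TT at 6 nt fell on the same positions as WT reads more often than its other reads did. Each library was thinned to 10260 kept reads for this. Of the reads with TT, 20.6% (19.1 to 22.2) in WT no UV replicate 1 and 20.7% (18.98 to 22.5) in replicate 2 lay at exactly a start, end and strand of WT replicate 1. Of the reads with TC, 4.66% (3.72 to 5.75) and 3.37% (2.67 to 4.19) did so, and of the reads with neither, 6.36% and 5.75%. Among thinned reads of WT replicate 2 the shares were 35.5% with TT, 11.5% with TC and 22.8% with neither. Against the positions of WT replicate 2, the TT reads of WT no UV matched in 11.4% (10.2 to 12.7) and 12.2% (10.8 to 13.7), and those of WT replicate 1 in 12.4% (11.5 to 13.3), so the intervals of the 3 libraries overlapped. Reads with neither dinucleotide matched in 3.66% and 2.92% in WT no UV and 7.47% in WT replicate 1. Positions of irradiated *csb-1* replicate 1 were met by 18.02% and 18.8% of the TT reads of WT no UV and by 24.1% and 29.8% of those of WT. For *csb-1* replicate 2 these shares were 27.9% and 27.2% against 33.8% and 39.7%. The 2 WT no UV libraries shared few positions with each other: 0.188% of the TT reads of replicate 1 and 0.195% of those of replicate 2. The number of positions to be met, 7971992 and 2862920 in WT and 10144 and 12785 in WT no UV, moves with these shares. Whether reads were carried over between libraries was not tested.

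**Figure D4:**
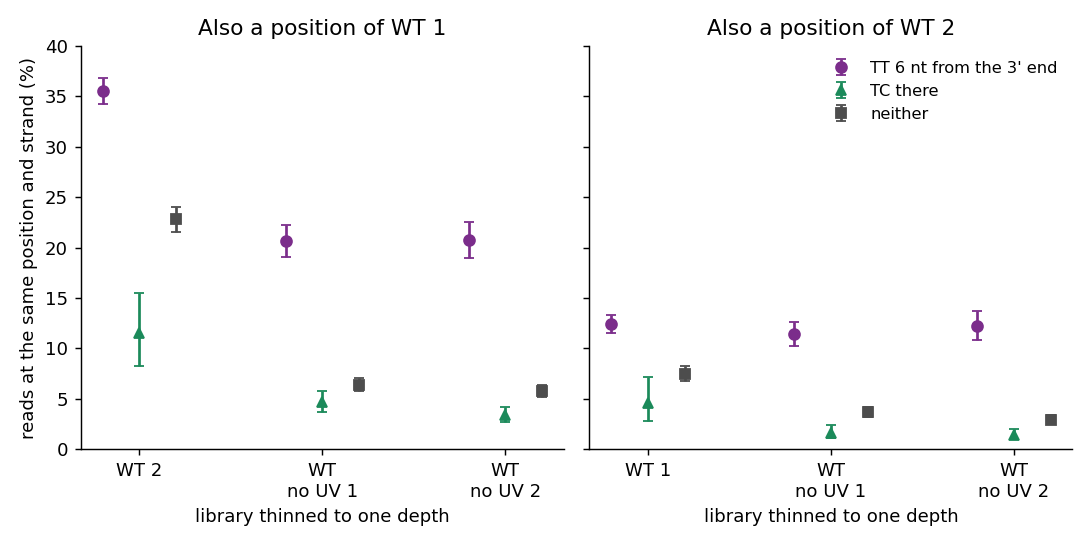
Share of thinned kept reads that lie at a start, end and strand also present in WT replicate 1 (left) or WT replicate 2 (right), for reads with TT, TC or neither 6 nt from the 3' end, with 95% exact intervals. TT reads of WT no UV match WT replicate 1 in 20.6% and 20.7%, against 4.66% and 3.37% for its TC reads.

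Along the chromosomes, WT no UV lay close to the lengths of the chromosomes and WT did not. Chromosome X, the sex chromosome, held 22.01% and 21.8% of kept nuclear reads in WT and 18.3% and 18.5% in WT no UV, a difference of -3.48 percentage points (SD 0.212), where it makes up 17.7% of the genome and 17.4% of its TTs. The groups did not overlap. With MtDNA in the total and each library thinned to 10286 reads, X held 2218 and 2301 reads in WT and 1880 and 1911 in WT no UV. Chromosomes IV and V held less in WT, with 15.7% each for IV and 18.8% and 18.7% for V, than in WT no UV, with 16.98% and 16.9% for IV and 20.3% and 19.9% for V. Chromosome III held between 13.7% and 14.0% in each library. The lower share of X in WT no UV was found for TT reads and for TC reads. Of its TT reads, 18.2% and 18.4% lay on X, against 22.04% and 21.8% in WT. Of its TC reads, 18.7% and 19.1% did so, against 21.9% and 20.98% in WT.

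Mitochondrial DNA, which nucleotide excision repair is not known to serve, held few reads in any library but a larger share in WT no UV. MtDNA reads numbered 5031 and 1200 in WT and 26 and 36 in WT no UV, which is 0.0613% and 0.0369% against 0.253% (0.165 to 0.370) and 0.278% (0.195 to 0.385). The difference was 0.216 percentage points (SD 0.0248), and the groups did not overlap. MtDNA makes up 0.0138% of the genome by length when counted once, and the number of MtDNA molecules per cell was not taken into account. Within WT the CPD mark was rarer on MtDNA, at 24.1% (22.9 to 25.3) and 24.5% (22.1 to 27.04) of its reads, than on the nuclear chromosomes, at 50.4% and 52.4%. WT no UV had it in 6 of 26 and 9 of 36 MtDNA reads, too few for a comparison.

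Within the annotation, reads of WT no UV lay more in coding sequence. Coding exons held 24.1% and 25.7% of reads in WT and 32.6% and 33.5% in WT no UV, with 24.6% of the genome and 16.98% of its TTs. The 2 kb upstream of genes held 27.0% and 26.1% in WT and 22.4% and 21.8% in WT no UV, and introns of protein-coding genes 30.3% and 29.8% against 26.9% and 27.1%. Protein-coding genes as a whole held 60.2% and 61.2% in WT and 65.0% and 65.6% in WT no UV, a difference of 4.61 percentage points (SD 0.776), and none of these groups overlapped. The share in coding exons went with the dinucleotide in both groups. Coding exons of WT no UV held 24.3% and 22.6% of the TT reads, 40.4% and 39.0% of the TC reads and 34.1% and 35.2% of the rest. In WT they held 21.9% and 22.9% of the TT reads, 29.2% and 32.3% of the TC reads and 26.1% and 28.5% of the rest. Base composition, which differs between exons and introns, moves with these shares, and its part was not tested.

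**Figure D5:**
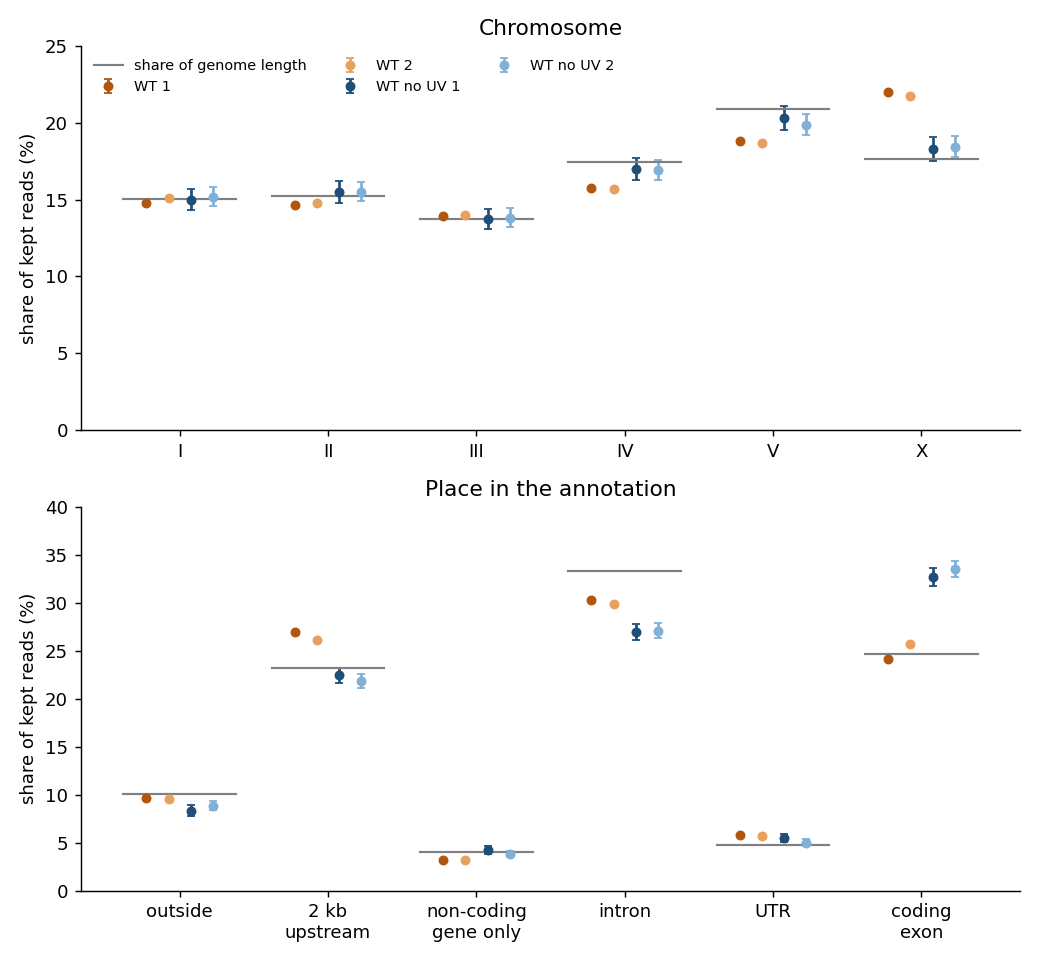
Share of kept reads on each nuclear chromosome (top) and in each part of the annotation (bottom), for the 4 libraries, with 95% exact intervals and the share of genome length as grey lines. WT stands above the line on X, where WT no UV lies near it, and WT no UV stands above it in coding exons, at 32.6% and 33.5%.

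Transcription-coupled repair, which starts from RNA polymerase stalled at a lesion, acts on the transcribed strand (TS) of active genes and leaves more reads on it than on the non-transcribed strand. In protein-coding genes annotated on 1 strand only, 55.2% and 56.5% of WT reads lay on the TS. In WT no UV the share was 50.1% (48.8 to 51.3) and 50.3% (49.3 to 51.4), intervals that include equal strands. The difference was -5.66 percentage points (SD 0.944), and the groups did not overlap. The TT reads of WT no UV had 49.8% (47.3 to 52.2) and 51.7% (49.2 to 54.2) on the TS against 54.6% and 55.7% in WT. Its TC reads stood at 48.1% (45.1 to 51.1) and 49.9% (47.7 to 52.2). The strand difference of WT was largest in coding exons, with 60.2% and 61.6% on the TS, where WT no UV had 51.2% and 51.0%. In introns WT had 53.0% and 53.7% and WT no UV 49.98% and 51.1%. In UTRs the TS held fewer reads than the other strand in all 4 libraries, with 46.0% and 48.0% in WT and 43.4% and 41.4% in WT no UV.

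Among the classes of genes, ribosomal RNA (rRNA) genes stood out in WT no UV. They held 33 and 45 kept reads there, 0.322% (0.222 to 0.451) and 0.348% (0.254 to 0.466), and 0.0370% and 0.0463% in WT, which comes to 3 and 5 reads when WT is thinned to 10260. None of the reads that matched the adaptor lay in these genes. The rRNA reads of WT no UV did not follow the strand of the RNA: 19 and 20 lay on the strand of the gene and 14 and 25 on the other. Pseudogenes held 1.59% and 1.61% in WT against 2.78% and 2.46% without UV, with 3.21% of the genome. The *str-*, *srh-*, *sri-*, *srw-* and *srx-* genes, 684 chemoreceptor genes, held 123 and 130 reads in WT no UV against 93 and 68 in WT, all thinned to 10260. The *rpl-* and *rps-* genes, 78 genes of cytosolic ribosomal proteins, held 5 and 7 against 16 and 8. The *col-* cuticle collagens had 19 and 13 against 10 and 13, and the *nhr-* nuclear hormone receptors 110 and 93 against 116 and 109. The thinned counts of *col-* and *nhr-* overlapped between the groups, while those of the chemoreceptor genes and of *rpl-* and *rps-* did not. Over all kept reads the shares were 0.185% and 0.178% against 0.114% and 0.123% for *col-*. For *nhr-* they were 1.07% and 0.937% against 1.09% in each WT library. These shares did not overlap, but the intervals of WT no UV included both WT shares. They were 0.112 to 0.289 and 0.113 to 0.267 for *col-*, and 0.882 to 1.29 and 0.778 to 1.12 for *nhr-*. Histone (*his-*), major sperm protein (*msp-*) and vitellogenin (*vit-*) genes held at most 5 thinned reads in any library, too few to compare. Other short RNA genes had few reads in WT no UV: tRNA genes had 4 and 1 kept reads, miRNA genes 0 and 3 and snRNA genes 0 and 1. Each count of 0, in replicate 1, allows a share of up to 0.0359%.

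Single genes carried little of the background. At 10260 reads per library, 4434 and 4439 of 19985 protein-coding genes had a read in WT and 4936 and 5037 in WT no UV, with at most 12 reads in 1 gene in WT no UV. The gene with the most reads in WT no UV was *rrn-3.1* (WBGene00004622, an rRNA gene on the plus strand at chrI:15064838-15068346), with 31 and 43 reads, or 3021 and 3329 RPM (reads scaled to the kept total), against 358 and 445 RPM in WT. It belongs to a repeated family, so its reads could be split between copies, and 18 of 31 and 19 of 43 lay on its own strand. Next came *ttn-1* (WBGene00006436, minus strand, chrV:6120909-6202632), which encodes a giant titin-like muscle protein, with 12 reads in each library (1170 and 929 RPM, against 424 and 455 RPM in WT), and *him-4* (WBGene00001863, plus strand, chrX:9717565-9753764), which encodes hemicentin of the extracellular matrix, with 10 in each (975 and 774 RPM, against 403 and 384 RPM). *nhr-27* had 11 and 8 reads, or 1072 and 619 RPM, against 1144 and 1142 RPM in WT, and *dig-1* (WBGene00000998, plus strand, chrIII:6746308-6794764), which encodes a very large matrix protein, had 5 and 11 (487 and 852 RPM, against 153 and 168 RPM). These protein-coding genes are long, and reads are not divided by length here.

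A limma voom fit of reads per gene asked which genes took a different share of the reads. Among 96 genes averaging 300 RPM or more, 10 (10.4%) were higher in WT no UV and 1 (1.04%) was higher in WT at an adjusted p under 0.05. The mean was taken over all 4 libraries, so a gene could enter through the group in which it was high. Of the 10 genes, 7 were under 300 RPM in both WT libraries, and the 1 gene higher in WT was under it in both WT no UV libraries, so the balance of 10 to 1 is read as nothing. With the filter set on the mean of WT alone, an alternative chosen after seeing the data, limma voom called 0 of 124 genes in either direction, with 4 and 31 at an unadjusted p under 0.05. The largest difference was that of *rrn-3.1*, with a log2 difference of 3.01 (SE 0.241, adjusted p 0.0389, limma voom). *dig-1* followed with 2.10, *clec-78*, a C-type lectin gene with 6 and 5 reads in WT no UV, with 1.53, *ttn-1* with 1.31 and *him-4* with 1.21, each higher in all 4 pairs of libraries, with adjusted p of 0.0389 or, for *clec-78*, 0.0407 (limma voom). *dig-1* and *clec-78* entered the test only through WT no UV, while the other 3 were above 300 RPM in WT too. The gene higher in WT was Y48C3A.5, at -0.98 (adjusted p 0.0407, limma voom), with 2 reads in each WT no UV library. These calls rest on 2 to 43 reads per WT no UV library, and they were not stable: without any 1 of the libraries at most 1 gene was called, and limma voom called none with all libraries thinned to one depth, where 4 and 5 had an unadjusted p under 0.05.

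The same fit over 999 windows of 100 kb called 25 windows (2.5%) higher in WT no UV and 9 (0.901%) higher in WT. Of the windows higher in WT, 6 lay on chromosome X and 3 on chromosome IV, and no window of X was higher in WT no UV. The median log2 difference over the 177 windows of X was -0.24, with 43 of them above 0, while the medians of the other chromosomes lay between -0.01 and 0.16. The windows with the largest increase in WT no UV were all on the right of chromosome IV: chrIV:15100001-15200000 with 12 and 14 reads and a log2 difference of 1.74, chrIV:16900001-17000000 with 12 reads in each and 1.49, and chrIV:16800001-16900000 with 9 and 12 reads and 1.36. Those with the largest decrease were chrIV:1-100000 with 2 reads in each and -1.33, chrX:14500001-14600000 with 5 and 10 reads and -1.26, and chrX:8000001-8100000 with 7 and 10 reads and -1.08. Without WT replicate 1, WT replicate 2 or WT no UV replicate 2, at most 2 windows were called in total, and without WT no UV replicate 1 there were 32 higher in WT no UV and 6 higher in WT. With all libraries thinned to one depth, limma voom called none, while 29 windows were higher in WT no UV and 32 higher in WT at an unadjusted p under 0.05.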

How the data were processed

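XR-seq reads of CPDs from WT and WT no UV L1 worms were analysed, 2 libraries each, as deposited. According to the study's methods and the labels, the authors trimmed adaptors with cutadapt, aligned reads to ce11 with Bowtie2 and used bedtools. The score of each row in the deposited files is the mapping quality, and rows of 20 or less are present, so the filter that the study's methods name had not been applied. That the number ending each name counts identical reads was taken from the values, as was the running number before it. Kept reads numbered 10260 to 8198054 per library. Bases were read from the WBcel235 reference, which ce11 names, at the deposited positions, so a base that differs in the read is not seen. Reads were placed by midpoint on Ensembl annotation 115.

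Differences were tested with exact two-sided permutation tests over libraries. Shares per gene (mean of at least 300 RPM) and per window were tested with limma 3.58.1 (voom, library sizes from kept totals) in R 4.3.3, and p-values were adjusted over all features (Benjamini-Hochberg). Tables used scipy 1.17.1, pandas 2.3.3 and numpy 2.4.6 under Python 3.11.15. On data simulated from the windows, with 200 of 999 changed, the fit recovered 62.2% of 2-fold and 96.4% of 4-fold changes, and 10.2% of its calls were false. For 20 of 96 genes it recovered 30.0% and 62.0%, with 11.3% false calls. These draws had Poisson spread only.

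Named genes are the 5 with the largest differences in each direction among called genes with 1 direction in all pairs of libraries, and the 5 with the most reads in WT no UV; 3 windows were taken in each direction. Members, lists and tests were chosen with earlier results of these data known, and the TC measure, the adaptor match and the mapping quality of 42 after the data were seen. Alternatives changed the mapping quality filter, counted copies, merged positions, left out libraries, thinned the libraries, used a replicate block or changed filters, size factors and window sizes.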

Additional observations from a re-analysis of the deposited data

How the results depend on the processing

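The 10 differences between the groups and the 4 counts of called genes and windows were recomputed under alternative settings. This gave 116 values, 4 to 7 for each difference and 13 or 15 for each count. Of these, 51 were classed as moved: a difference by at least its SD, a count by more than a set factor. No difference changed its direction. Leaving out replicate 1 or replicate 2 of both groups gave kept reads of WT no UV of 0.125% to 0.397% of WT, and differences of -34.6 to -25.1 percentage points for TT, 14.5 to 20.5 for TC, -17.6 to -0.447 for copies and -6.18 to -5.14 for the TS share. Counted with copies, the kept reads were 0.0416% of WT, the difference in mean length -0.594 nt, that on MtDNA 0.246 percentage points and that on X -2.52. With any mapping quality, the differences were 0.186 on MtDNA and 2.74 in protein-coding genes.

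Counts of calls were less stable. Without 1 library, genes higher in WT no UV ranged from 0 to 1 and genes higher in WT were 0, and windows ranged from 1 to 32 and from 0 to 6. With the replicate block, no gene was called in either direction, and 1 window was higher in WT no UV and 0 in WT. The correlation of deviations between replicates of the same number was -0.0574 over genes and 0.00676 over windows. It cannot tell whether the replicate numbers pair the samples, because few reads per feature make the deviations of WT no UV large. Their SD in log2 was 0.779 over genes and 0.600 over windows in WT no UV, against 0.0622 and 0.0525 in WT. On the scale log2(RPM + 100), 1 gene was higher in WT no UV and 0 in WT, and 0 windows in each direction. Thinned, all counts were 0, with 4 and 5 genes at an unadjusted p under 0.05. With any mapping quality, 21 and 5 genes and 69 and 22 windows were called. With a mapping quality of 42 only, 1 and 0 windows were called. A filter of 150 RPM called 24 and 2 genes, and one of 600 called 3 and 1 of 6. A filter on the mean of WT alone, added after seeing the data, called 0 and 0 of 124. With no filter 32113 and 153 genes were called. The 0.5 reads that voom adds are worth 48.7 and 38.7 RPM in WT no UV and 0.0610 and 0.154 in WT, which sets a gene without reads higher in WT no UV. Median-of-ratios size factors called 14 genes higher in WT no UV and 2 higher in WT, and merged positions 15 and 3. Windows of 50 kb gave 4 and 0 calls, and windows of 200 kb gave 28 and 10. Depth limits WT no UV to a median of 10 and 12 reads per window and 4 and 5 per tested gene.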
